A study of Mus musculus with 8 samples.

Results

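The genes described here are 44 genes of blood and lymphatic endothelium, the cells that line vessels, with the adhesion molecules, growth factors and receptors that act on them. They were chosen by name from a table of 18806 genes, 43 by the symbol in the table and Figf by its current symbol, Vegfd, which the RefSeq gene table gives for gene 14205. They were measured by RNA sequencing of colon from 8 mice with colitis caused by dextran sulfate sodium (DSS), which damages the lining of the colon when mice drink it. In 4 mice DSS was the one treatment that the labels name (the DSS group), and 4 mice with DSS also received the gut bacterium Alistipes putredinis (the DSS+AP group). All 8 mice had DSS, and healthy colon was not among the samples. The strain, age and sex of the mice and the doses and days of treatment are not given in the sources used here. The study set the severity of colitis in the 2 groups side by side and drew the 4 sequenced mice of each at random. Which stretch and which layers of the colon were taken is not given there either. Fewer endothelial cells, less RNA per cell and a larger share of RNA from other cells cannot be told apart in such tissue pieces.

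Endothelial cells are held together by VE-cadherin and PECAM1 and are kept in number and shape by vascular endothelial growth factors, which act on the receptors FLT1, KDR and FLT4, and by angiopoietins, which act on TEK. In an inflamed gut they also present selectins and immunoglobulin-type adhesion molecules, on which leukocytes roll and stop before they leave the blood. Lymphatic endothelium, which drains fluid and cells from the gut wall, is set apart by the transcription factor PROX1 and answers mainly to VEGF-C and VEGF-D through FLT4.

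Each library held between 16089081 and 17104290 estimated counts. Levels are given as CPM, counts scaled to the library total after TMM correction for composition, and 3 counts, taken as the floor of detection, were between 0.167 and 0.186 CPM, for counting error only. Spearman's rho across genes was 0.977 to 0.994 between libraries of the same group. Every such pair differed by more than counting error, with a chi-square of 11.2 or more for each gene on average. A change is the log2 ratio of DSS+AP to DSS with its standard error (SE). Adjusted p-values come from edgeR's quasi-likelihood test over 14578 genes with a threshold of 0.05 (n = 4 in each group).

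Genes of blood vessels and of lymphatic vessels were lower in DSS+AP colon pieces, in which levels inside the vessels were not measured. All 44 members passed the filter on low counts, 41 were lower at the threshold and 0 were higher, where 29.2% of all genes tested passed, 20.4% as lower and 8.84% as higher. The median of the members was -1.22, beside 0.017 over all genes tested. In 39 members all DSS+AP values were under the lowest DSS value, as in 19.6% of all genes, and in 0 were they all over the highest, as in 10.8%. By role, 24 of 25 blood vessel genes, 5 of 5 adhesion molecules of leukocyte recruitment, 6 of 6 lymphatic genes, 5 of 7 growth factors and the mural cell gene Rgs5 were lower. The median was -1.18 for the blood vessel genes and -1.23 for the lymphatic genes, and the difference between these 2 was not tested. Markers of fibroblasts (9 of 10), smooth muscle (10 of 12) and leukocytes (9 of 10) were lower in the same libraries, and their part in the result was not tested.

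**Figure D1:**
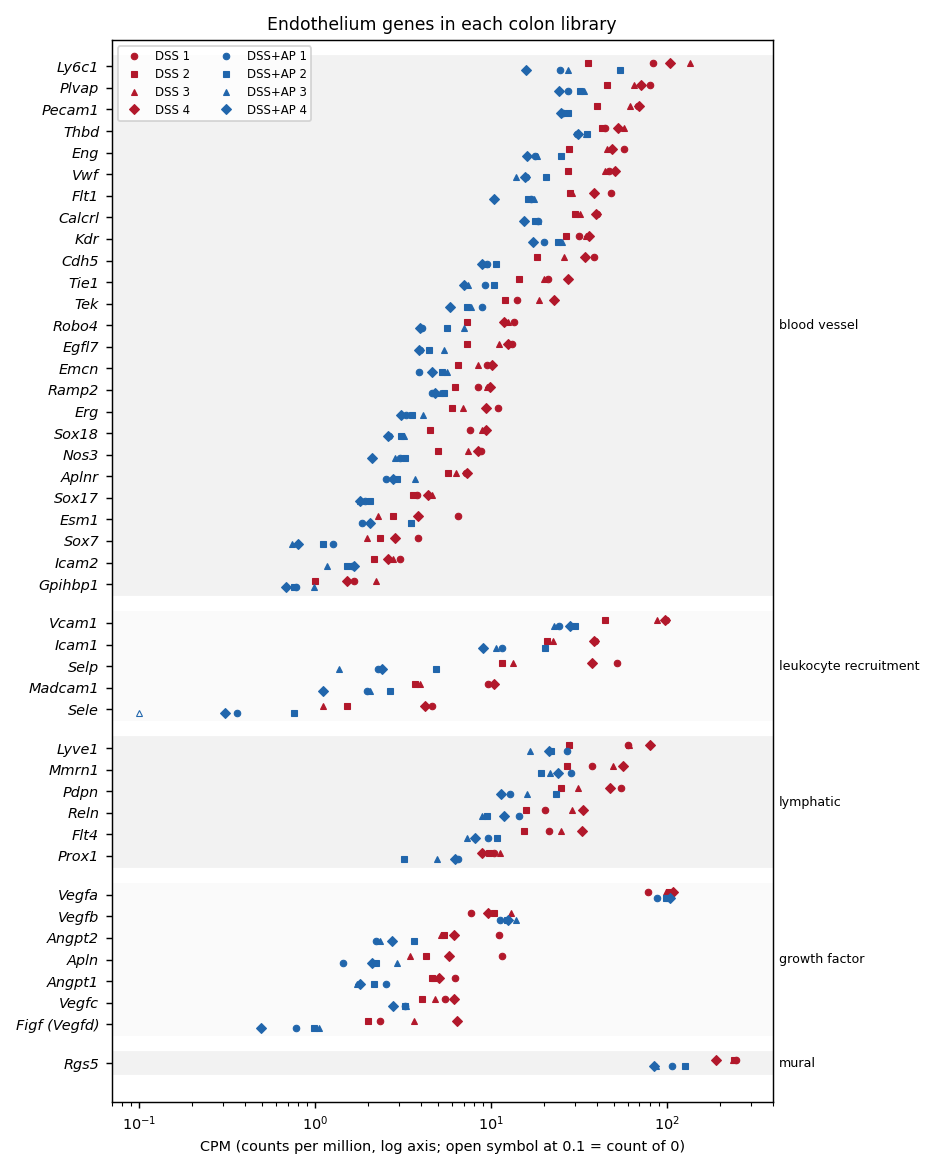
CPM of the 44 genes in each of the 8 libraries on a log axis, by role, with DSS in red and DSS+AP in blue and 1 symbol per replicate number; the open triangle is the count of 0 for Sele in DSS+AP 3. The blue symbols of 39 genes all lie to the left of the red ones, while those of Vegfa and Vegfb overlap them.

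**Figure D2:**
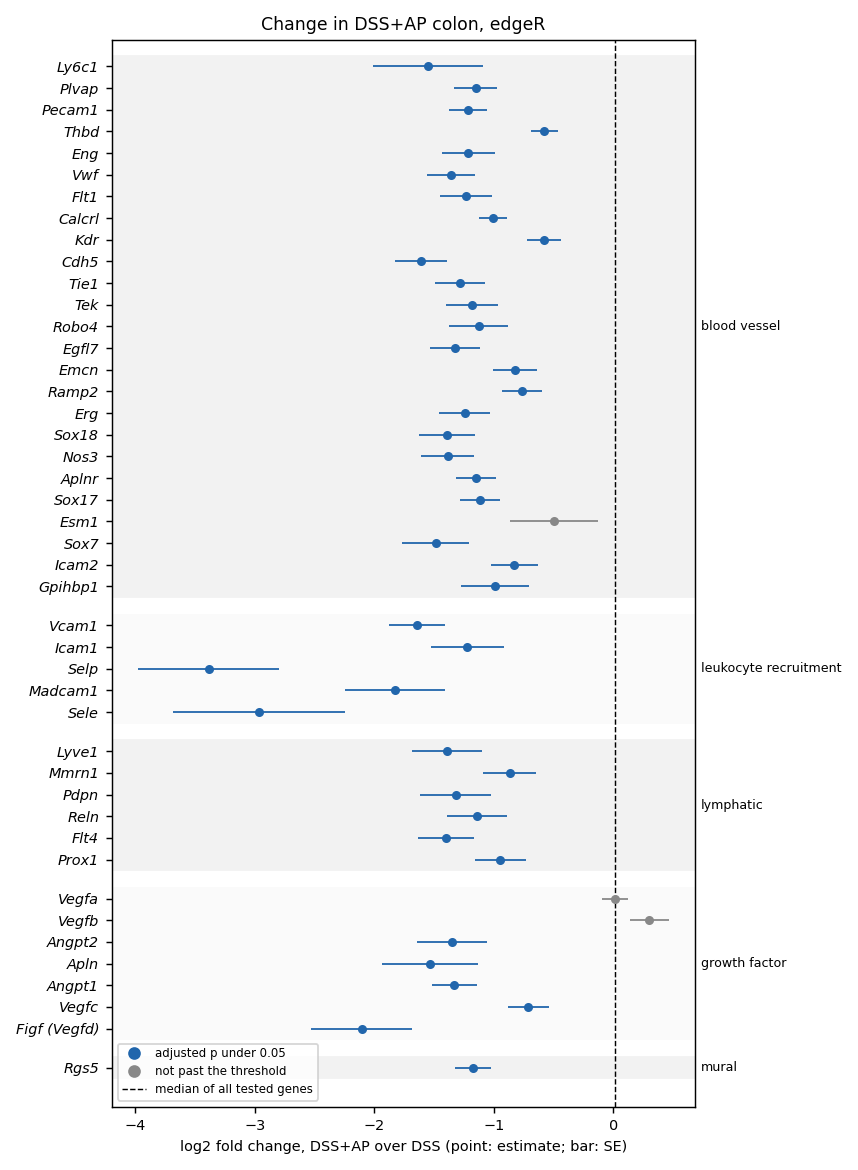
Log2 fold change of each gene, DSS+AP over DSS, as a point with its SE as a bar, by role; the dashed line is the median over all 14578 genes tested, 0.017. The 41 genes past the threshold all lie to the left of the line, with Selp and Sele farthest, and Esm1, Vegfa and Vegfb in grey did not pass.

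Among genes of endothelial junctions, surface and granules, Pecam1, Cdh5, Vwf, Plvap and Eng fell. Pecam1, which encodes the adhesion molecule CD31 of endothelium, platelets and some leukocytes (chromosome 11, 106654213 to 106715281, GRCm38.p6), was at 68.7, 40.3, 62.1 and 69.8 CPM in DSS 1 to 4 and at 25.7, 27.4, 25.4 and 25.2 CPM in DSS+AP 1 to 4. The groups did not overlap, and the DSS+AP libraries were close to each other while DSS 2 was lower than the other DSS libraries. The change was -1.22 ± 0.16 (edgeR adjusted p = 0.00324), or 2.32-fold lower. Cdh5, the gene of VE-cadherin, the adhesion protein of endothelial junctions (chromosome 8, 104101613 to 104144504), had 38.8, 18.4, 26.0 and 34.3 CPM in DSS and 9.54, 10.7, 9.36 and 8.86 CPM in DSS+AP. Its -1.61 ± 0.22 (edgeR adjusted p = 0.00324) was the lowest value among the 25 blood vessel genes. Vwf, which encodes the clotting protein von Willebrand factor, stored in endothelial granules (chromosome 6, 125552948 to 125686679), had 46.8, 27.3, 44.4 and 50.7 CPM in DSS and 15.8, 20.5, 13.9 and 15.7 CPM in DSS+AP, a change of -1.36 ± 0.20 (edgeR adjusted p = 0.00364). Again no DSS+AP library reached DSS 2, the lowest of its group. Plvap, the gene of the diaphragms that span openings in capillary endothelium, had 80.4, 45.6, 65.2 and 71.7 CPM in DSS and 27.4, 32.2, 34.1 and 24.5 CPM in DSS+AP, a change of -1.15 ± 0.18. Eng, which encodes the TGF-beta co-receptor endoglin, had 56.9, 27.8, 46.0 and 48.8 CPM in DSS and 17.9, 25.1, 18.4 and 16.04 CPM in DSS+AP, a change of -1.21 ± 0.22. For both, DSS 2 was the lowest of its group and still above every DSS+AP library.

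Other surface and secreted products of blood vessels were lower by differing amounts. Egfl7, a secreted endothelial protein gene that also hosts a microRNA, had 13.3, 7.30, 11.2 and 12.6 CPM in DSS and 3.96, 4.44, 5.39 and 3.90 CPM in DSS+AP and changed by -1.32 ± 0.21. Robo4, an endothelial guidance receptor gene, had 13.5, 7.36, 12.5 and 11.9 CPM in DSS and 4.08, 5.66, 7.01 and 3.96 CPM in DSS+AP and changed by -1.13 ± 0.25, with DSS+AP 3 just under DSS 2. Egfl7 shares 9.41% of its exon bases with other genes on its strand. Nos3, the gene of endothelial nitric oxide synthase, had 8.75, 5.003, 7.37 and 8.40 CPM in DSS and 3.06, 3.27, 2.85 and 2.11 CPM in DSS+AP and changed by -1.38 ± 0.22. Of its exon bases, 32.3% lie opposite exons of other genes, and its count is uncertain because the sources used here do not say whether counting used strand, which holds for each such overlap named here. Smaller changes were found for 3 genes of the endothelial surface. Thbd, which encodes the anticoagulant receptor thrombomodulin, had 44.4, 42.7, 57.3 and 52.7 CPM in DSS and 30.9, 35.2, 34.7 and 31.3 CPM in DSS+AP, a change of -0.58 ± 0.11 (edgeR adjusted p = 0.00676). Emcn, the gene of the sialomucin endomucin, had 9.53, 6.47, 8.43 and 10.1 CPM in DSS and 3.90, 5.31, 5.64 and 4.65 CPM in DSS+AP, a change of -0.82 ± 0.18. Icam2, an adhesion molecule of resting endothelium, had 3.06, 2.18, 2.79 and 2.62 CPM in DSS and 1.62, 1.52, 1.18 and 1.67 CPM in DSS+AP, a change of -0.83 ± 0.20. The gaps were narrow but left the groups apart in all 3. Gpihbp1, which carries lipoprotein lipase across capillaries, was the least abundant of the 44 per kilobase of exon in DSS. It had 1.67, 1.001, 2.23 and 1.52 CPM in DSS and 0.780, 0.759, 0.992 and 0.681 CPM in DSS+AP, and -0.99 ± 0.29 passed with an edgeR adjusted p of 0.0301. It no longer passed when mouse 1, 3 or 4 of DSS (edgeR adjusted p = 0.0611, 0.0767 and 0.0638) or mouse 1, 2 or 4 of DSS+AP (0.0833, 0.0602 and 0.0787) was left out.

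Ly6c1, a gene of arterial and capillary endothelium in mouse and, with its near copy Ly6c2, of monocytes, varied the most within groups among the blood vessel genes that passed. It had 84.1, 35.8, 136 and 105 CPM in DSS and 24.8, 54.4, 27.7 and 15.9 CPM in DSS+AP, and DSS+AP 2 lay above DSS 2. Its estimated counts were not whole numbers in 7 of 8 libraries, so part of its reads could not be placed on 1 gene and its level is uncertain. The change of -1.55 ± 0.46 passed (edgeR adjusted p = 0.0345) but did not when mouse 1, 3 or 4 of either group was left out (edgeR adjusted p = 0.0735 to 0.0917), nor without a filter on low counts (0.0614).

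Of the vascular growth factor receptor genes, Flt1, Tek, Tie1 and Kdr were lower, with the smallest estimate for Kdr. Kdr encodes VEGFR2, through which VEGF-A drives the growth of vessels (chromosome 5, 75932827 to 75979072). It had 31.9, 26.9, 34.9 and 36.3 CPM in DSS and 20.2, 24.1, 25.4 and 17.3 CPM in DSS+AP, so that DSS+AP 3 came close to DSS 2. Its change was -0.58 ± 0.14 (edgeR adjusted p = 0.0179), and it did not pass without DSS 4 (0.0542) or DSS+AP 1 (0.0676). Flt1, the gene of VEGFR1, which binds VEGF-A tightly and also exists as a soluble trap, had 48.4, 28.1, 28.8 and 38.7 CPM in DSS and 16.9, 16.3, 17.6 and 10.4 CPM in DSS+AP, a change of -1.23 ± 0.22 (edgeR adjusted p = 0.00555). The groups were well apart for Flt1, with DSS+AP 4 the lowest library. The angiopoietin receptor gene Tek had 14.1, 12.0, 18.8 and 22.9 CPM in DSS and 8.88, 7.30, 7.75 and 5.89 CPM in DSS+AP, and the gene of its partner receptor Tie1 had 21.2, 14.4, 20.1 and 27.5 CPM in DSS and 9.24, 10.4, 7.38 and 7.06 CPM in DSS+AP. Their changes were -1.18 ± 0.22 and -1.28 ± 0.21, and neither overlapped between groups. The change of Kdr set against that of Flt1 or Tek was not tested.

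Genes of peptide receptors on endothelium were lower as well. Aplnr, the apelin receptor gene, had 7.19, 5.71, 6.32 and 7.31 CPM in DSS and 2.52, 2.92, 3.72 and 2.79 CPM in DSS+AP and changed by -1.15 ± 0.17 (edgeR adjusted p = 0.00369). Calcrl and Ramp2 encode the 2 chains of the adrenomedullin receptor, which keeps endothelium tight. Calcrl had 40.0, 30.1, 32.2 and 39.4 CPM in DSS and 18.6, 17.9, 18.5 and 15.4 CPM in DSS+AP, a change of -1.01 ± 0.12 (edgeR adjusted p = 0.00320). This was the smallest adjusted p of the 44 genes. Ramp2 had 8.47, 6.24, 9.48 and 9.92 CPM in DSS and 4.62, 5.43, 5.15 and 4.83 CPM in DSS+AP and changed by -0.77 ± 0.17, but 33.4% of its exon bases in the GENCODE annotation overlap Vps25 on the same strand, and its count is uncertain. Esm1, a secreted marker of the tip cells that lead new sprouts, was the 1 blood vessel gene that did not pass, with 6.52, 2.77, 2.29 and 3.84 CPM in DSS and 1.86, 3.50, 3.53 and 2.04 CPM in DSS+AP. DSS 1 was the highest library and DSS 2 and DSS 3 lay within the DSS+AP range, and the change was -0.50 ± 0.37 (edgeR adjusted p = 0.328). The value was -0.089 without DSS 1 and -0.30 without DSS+AP 1, again with no call.

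The 4 transcription factor genes among the blood vessel members were lower. Erg, an ETS factor that keeps endothelial identity (chromosome 16, 95359169 to 95586600), had 10.9, 6.003, 6.94 and 9.44 CPM in DSS and 3.30, 3.56, 4.09 and 3.10 CPM in DSS+AP and changed by -1.24 ± 0.21 (edgeR adjusted p = 0.00499). The SOX factors Sox7, Sox17 and Sox18, which act in the forming of vessels, changed by -1.49 ± 0.28, -1.11 ± 0.16 and -1.39 ± 0.24. Sox17, a factor of arterial endothelium, had 3.79, 3.59, 4.65 and 4.38 CPM in DSS and 1.92, 2.04, 1.80 and 1.80 CPM in DSS+AP, the least spread of these 4 factors for its level, and 16.8% of its exon bases lie opposite another gene. Sox18, which also acts in early lymphatic endothelium, had 7.58, 4.53, 8.92 and 9.38 CPM in DSS and 2.64, 3.09, 3.22 and 2.60 CPM in DSS+AP. Sox7 had 3.84, 2.35, 1.98 and 2.86 CPM in DSS and 1.26, 1.11, 0.744 and 0.805 CPM in DSS+AP. No library of these 4 factors overlapped between groups. Sox7 had 12 to 21 counts per library in DSS+AP, which limits its precision.

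The adhesion molecules that recruit leukocytes were all lower, and the 2 selectins had the largest changes of the 44 genes. Selp encodes P-selectin, on which leukocytes first roll, and is carried in endothelial and platelet granules (chromosome 1, 164115264 to 164150026). It had 52.4, 11.5, 13.4 and 37.9 CPM in DSS and 2.28, 4.90, 1.36 and 2.42 CPM in DSS+AP. DSS 1 and DSS 4 were high and DSS 2 and DSS 3 lower, yet all were above every DSS+AP library. The change of -3.39 ± 0.59 (edgeR adjusted p = 0.00511) is a level 10.5-fold lower. Values for Selp ran from -2.88 without DSS 1 to -3.82 without DSS+AP 2. Exons of other genes lie opposite 14.1% of its exon bases. Sele, the gene of E-selectin, which activated endothelium makes, lies near Selp on chromosome 1 (164039614 to 164058487). It had 4.62, 1.53, 1.12 and 4.20 CPM in DSS and 0.360, 0.759, 0 and 0.310 CPM in DSS+AP, that is 18 to 83 counts per library in DSS and 0 to 13 in DSS+AP. The count of 0 in DSS+AP 3 allows up to 0.186 CPM. Its change was -2.97 ± 0.72 (edgeR adjusted p = 0.0161), with values from -2.56 without DSS+AP 3 to -3.63 without DSS+AP 2.

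Madcam1 encodes the mucosal addressin, the ligand by which gut-homing lymphocytes enter the lamina propria (chromosome 10, 79664559 to 79668542). It had 9.70, 3.71, 3.97 and 10.5 CPM in DSS and 1.98, 2.69, 2.05 and 1.12 CPM in DSS+AP, with DSS 1 and DSS 4 again high, and a change of -1.83 ± 0.42 (edgeR adjusted p = 0.0128). Vcam1, which binds integrins of lymphocytes and monocytes and is also made by stromal cells (chromosome 3, 116110020 to 116129688), had 98.7, 44.8, 87.7 and 98.4 CPM in DSS and 24.5, 30.0, 22.8 and 28.3 CPM in DSS+AP. Its groups were widely apart, and the change was -1.64 ± 0.24 (edgeR adjusted p = 0.00350). Icam1, which leukocyte integrins bind and which epithelium and leukocytes make too (chromosome 9, 21015940 to 21028814), had 39.0, 20.8, 22.5 and 38.5 CPM in DSS and 11.6, 20.4, 10.7 and 8.98 CPM in DSS+AP. Here DSS+AP 2 almost reached DSS 2, and -1.22 ± 0.31 passed with an edgeR adjusted p of 0.0180. Another gene lies opposite 11.7% of its exon bases. The call was missed when DSS 1 (0.0527), DSS 4 (0.0529), DSS+AP 1 (0.0587) or DSS+AP 3 (0.0568) was left out. Leukocyte markers were lower in the same libraries, 9 of 10 at the threshold, and platelet markers in 2 of 3 tested, and their part in these changes was not tested.

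The promoters of 4 of these 5 genes were in the RefSeq promoter table of GRCm38.p6 and are shown because these members fell together and because NF-kB, a factor of inflammatory signalling, is known to act on adhesion molecule promoters. Each is the 250 bases before the listed start site, 5′ to 3′ on the strand of the gene. Capitals mark matches to GGG, then any 5 bases, then CC, a loose form of the NF-kB site, on either strand. Forms of the site without GGG were not searched for and stay in lower case. The listed start of Sele lies inside the gene span given above, which begins farther upstream.
Selp, chr1:164115014-164115263, plus strand: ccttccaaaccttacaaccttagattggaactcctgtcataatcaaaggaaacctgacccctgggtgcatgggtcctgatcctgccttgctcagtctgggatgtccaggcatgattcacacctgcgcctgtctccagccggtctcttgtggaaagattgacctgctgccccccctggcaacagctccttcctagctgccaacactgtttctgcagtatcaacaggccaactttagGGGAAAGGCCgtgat
Sele, chr1:164047984-164048233, plus strand: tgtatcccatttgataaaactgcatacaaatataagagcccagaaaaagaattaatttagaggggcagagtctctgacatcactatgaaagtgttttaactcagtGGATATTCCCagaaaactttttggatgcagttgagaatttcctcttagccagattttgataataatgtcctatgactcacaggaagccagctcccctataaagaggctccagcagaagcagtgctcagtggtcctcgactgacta
Icam1, chr9:21015690-21015939, plus strand: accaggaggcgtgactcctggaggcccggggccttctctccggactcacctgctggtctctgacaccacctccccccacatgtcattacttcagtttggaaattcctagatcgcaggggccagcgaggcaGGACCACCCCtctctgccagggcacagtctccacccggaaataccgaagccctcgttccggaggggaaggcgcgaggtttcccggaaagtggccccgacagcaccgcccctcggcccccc
Madcam1, chr10:79664309-79664558, plus strand: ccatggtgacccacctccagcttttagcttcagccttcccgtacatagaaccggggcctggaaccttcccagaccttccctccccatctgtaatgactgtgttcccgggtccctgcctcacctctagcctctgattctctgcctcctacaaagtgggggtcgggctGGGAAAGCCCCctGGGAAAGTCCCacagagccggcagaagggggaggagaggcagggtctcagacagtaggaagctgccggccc
The matches begin 15, 145 and 120 bases before the start site in Selp, Sele and Icam1, and Madcam1 has 4 overlapping matches in 2 stretches. Over windows of 300 bases (250 before to 50 after the start), the form was found in 4 of 4 recruitment genes. It was also in 7 of 12 blood vessel, 4 of 5 lymphatic and 3 of 5 growth factor genes. In all, 18 of the 27 members with a listed promoter and 53.5% of 27025 genes had it. A form present in so many promoters is a description of these letters, not a site. The ETS core GGAAG, which Erg and its relatives bind, was found in 21 of 27 members (77.8%) beside 73.9% of all genes. Its extended form CCGGAAG, whose matches also hold the core, was in 1 of 27 (Reln; 3.70%) beside 9.93%. The share of members with the core was near that of all promoters.

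Lymphatic genes were all lower. Prox1, the transcription factor that sets lymphatic identity (chromosome 1, 190118035 to 190170827), had 10.4, 9.77, 11.3 and 8.95 CPM in DSS and 6.54, 3.21, 4.96 and 6.26 CPM in DSS+AP. DSS libraries were close together, DSS+AP 2 was the lowest library, and the change was -0.94 ± 0.22 (edgeR adjusted p = 0.0126). Within the DSS group Prox1 was lowest in DSS 4, where Flt4, Lyve1, Reln and Mmrn1 were highest, while Pdpn was highest in DSS 1. Whether cells other than lymphatic endothelium gave part of the Prox1 reads was not tested. Lyve1, a hyaluronan receptor gene of lymphatic capillaries and of some resident macrophages (chromosome 7, 110850607 to 110862953), had 60.0, 27.8, 61.0 and 80.7 CPM in DSS and 27.2, 22.1, 16.8 and 21.4 CPM in DSS+AP. DSS 2 and DSS+AP 1 nearly met, and the change was -1.39 ± 0.29 (edgeR adjusted p = 0.00928). Flt4, the gene of VEGFR3, the receptor of VEGF-C and VEGF-D, had 21.3, 15.5, 24.97 and 33.2 CPM in DSS and 9.66, 10.9, 7.32 and 8.12 CPM in DSS+AP and changed by -1.40 ± 0.23 (edgeR adjusted p = 0.00455). Pdpn, which encodes podoplanin of lymphatic endothelium and of fibroblasts, had 55.0, 25.1, 31.3 and 47.8 CPM in DSS and 12.8, 23.5, 16.1 and 11.4 CPM in DSS+AP, a change of -1.32 ± 0.30. All DSS+AP values of Flt4 were well under the DSS range, whereas for Pdpn DSS+AP 2 came near DSS 2.

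Reln, the gene of the secreted glycoprotein reelin, which lymphatic endothelium makes, changed by -1.14 ± 0.25 from 20.3, 15.8, 29.1 and 33.5 CPM in DSS to 14.4, 9.57, 8.87 and 11.8 CPM in DSS+AP. Mmrn1, the gene of multimerin 1 of lymphatic endothelium and platelets, had 37.7, 27.0, 49.6 and 56.7 CPM in DSS and 28.6, 19.4, 21.6 and 24.1 CPM in DSS+AP. It was the 1 lymphatic gene whose groups overlapped, at DSS 2 and DSS+AP 1, and its -0.87 ± 0.22 passed (edgeR adjusted p = 0.0204). It did not pass without DSS 3 (0.0520), DSS 4 (0.0555) or DSS+AP 3 (0.0605).

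The vascular growth factors divided by member. Vegfa, the main growth factor of blood vessels, which epithelium and macrophages make (chromosome 17, 46016993 to 46032377), had 78.5, 104, 99.0 and 108 CPM in DSS and 87.8, 99.5, 101 and 104 CPM in DSS+AP. The groups overlapped almost wholly, and the estimate was 0.014 ± 0.11 (edgeR adjusted p = 0.934). Its sign turned at -0.0091 with upper-quartile factors and -0.027 with library totals, but not with RLE factors (0.033), and it was -0.035 in a limma-voom fit. Vegfb, a growth factor that binds VEGFR1, had 7.75, 10.4, 13.0 and 9.62 CPM in DSS and 11.3, 12.4, 13.9 and 12.6 CPM in DSS+AP, and 0.30 ± 0.16 did not pass (edgeR adjusted p = 0.189). These p-values do not show that either gene was the same in the groups.

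The ligands of lymphatic vessels were lower. Vegfc, which encodes VEGF-C (chromosome 8, 54077532 to 54186454), had 5.52, 4.06, 4.83 and 6.21 CPM in DSS and 3.24, 3.27, 3.29 and 2.79 CPM in DSS+AP, with no overlap and a change of -0.71 ± 0.17 (edgeR adjusted p = 0.0165). Its estimated counts were not whole in 7 of 8 libraries, and it did not pass without DSS 4 (0.0501), DSS+AP 1 (0.0552) or DSS+AP 4 (0.0504). Figf, which encodes VEGF-D (chromosome X, 164373522 to 164402650), had 2.34, 2.001, 3.66 and 6.45 CPM in DSS and 0.780, 0.992, 1.05 and 0.496 CPM in DSS+AP. DSS 4 was the highest library, the groups did not overlap, and the change was -2.11 ± 0.43 (edgeR adjusted p = 0.00841), or -1.67 without DSS 4. With 8 to 17 counts per library in DSS+AP the size of this fall is imprecise.

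Both angiopoietins fell. Angpt1, the agonist of TEK made by mural and stromal cells (chromosome 15, 42424667 to 42676977), had 6.24, 4.65, 4.77 and 5.05 CPM in DSS and 2.52, 2.16, 1.74 and 1.80 CPM in DSS+AP and changed by -1.33 ± 0.19 (edgeR adjusted p = 0.00344). Its exon bases lie opposite another gene for 14.2%. Angpt2, its context-dependent antagonist, which endothelium itself releases (chromosome 8, 18690263 to 18741562), had 11.1, 5.41, 5.20 and 6.21 CPM in DSS and 2.22, 3.68, 2.36 and 2.73 CPM in DSS+AP. Its change was -1.35 ± 0.29 (edgeR adjusted p = 0.0106), or -1.002 without DSS 1, the library far above the other DSS libraries. Ligand, antagonist and receptor of the angiopoietin pathway were lower in the same libraries. Apln, the gene of apelin, made by tip cells, had 11.6, 4.30, 3.47 and 5.78 CPM in DSS and 1.44, 2.22, 2.91 and 2.11 CPM in DSS+AP, with DSS 1 high again, and changed by -1.54 ± 0.40 (edgeR adjusted p = 0.0208). Its value was -1.03 without DSS 1, and it did not pass without DSS+AP 1 (0.0671) or DSS+AP 4 (0.0538). Without either of these 2 libraries 3 of the 7 growth factors were lower instead of 5.

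Rgs5, a regulator of G protein signalling that marks pericytes and other mural cells (chromosome 1, 169655501 to 169695813), had 247, 241, 239 and 190.0 CPM in DSS and 108, 127, 86.9 and 84.3 CPM in DSS+AP. No libraries overlapped, DSS 4 was the lowest of its group, and the change was -1.18 ± 0.15 (edgeR adjusted p = 0.00324). Of the 9 pericyte and mural markers listed beside it, 7 were tested, 6 were lower and 0 higher, with a median of -1.05. Abcc9 and Kcnj8, the subunits of the potassium channel of pericytes, changed by -2.26 ± 0.29 and -2.38 ± 0.36, Notch3 by -1.02 ± 0.14 and the platelet-derived growth factor receptor gene Pdgfrb by -0.90 ± 0.13.

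Per kilobase of exon, the order of the levels changed at the top. Ly6c1, Rgs5, Plvap and Vegfa led in DSS, at mean values of 53.8, 50.4, 33.1 and 22.7 CPM per kilobase. Vegfa led in DSS+AP at 22.9, followed by Rgs5 at 22.3, Ly6c1 at 18.3 and Plvap at 14.9 CPM per kilobase. In DSS the first 2 did not differ beyond their spread, since the CPM of Ly6c1 ran from 35.8 to 136, and in DSS+AP neither did Vegfa and Rgs5. Selp went from the 15th to the 37th level of the 44 on this scale and Sele from the 41st to the 44th.

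Next, each gene was set against Cdh5 and Tie1, a pair that is itself among the 44 and marks endothelium, by subtracting their mean log2 CPM in the same library. On this scale 34 of the 44 genes, the pair included, overlapped between groups. In 9 all DSS+AP values were over the highest DSS value, as in 78.6% of all genes tested, since the pair itself fell. In 1, Selp, all were under the lowest, as in 0.741% of all genes. This is a description of levels and was not tested. Selp was at 0.87, -0.49, -0.77 and 0.30 in DSS and -1.99, -1.09, -2.51 and -1.66 in DSS+AP (log2 relative to the pair), a difference of -1.79. Sele differed by -1.33 with DSS+AP 2 above DSS 3, and Figf by -0.47 with overlap. Vcam1, Icam1 and Madcam1 overlapped, with differences of -0.18, 0.17 and -0.27.

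The 9 genes whose DSS+AP values were all higher than in DSS on this scale were the 3 growth factors Vegfa, Vegfb and Vegfc, and 6 blood vessel genes. Among these Kdr was at 0.15, 0.72, 0.61 and 0.24 in DSS and 1.09, 1.18, 1.599 and 1.12 in DSS+AP, and Thbd at 0.63, 1.38, 1.32 and 0.78 and 1.71, 1.72, 2.05 and 1.97. Their differences were 0.82 and 0.83, those of Ramp2, Icam2, Emcn and Plvap 0.67, 0.62, 0.60 and 0.27, and those of Vegfa, Vegfb and Vegfc 1.42, 1.72 and 0.72. Of these 9 genes, Vegfa and Vegfb did not pass the test on counts and the other 7 were lower in DSS+AP colon, as described above. All 6 lymphatic genes overlapped, from 0.047 for Flt4 to 0.58 for Mmrn1. The median difference was 0.26 for blood vessel genes, 0.20 for lymphatic genes, 0.13 for growth factors and -0.27 for recruitment genes. On counts Cdh5 and Tie1 changed by -1.61 and -1.28, beside medians of -1.18 for blood vessel and -1.23 for lymphatic genes. Medians over 0 for these 2 classes therefore follow from the choice of the pair and are not a separate result.

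**Figure D3:**
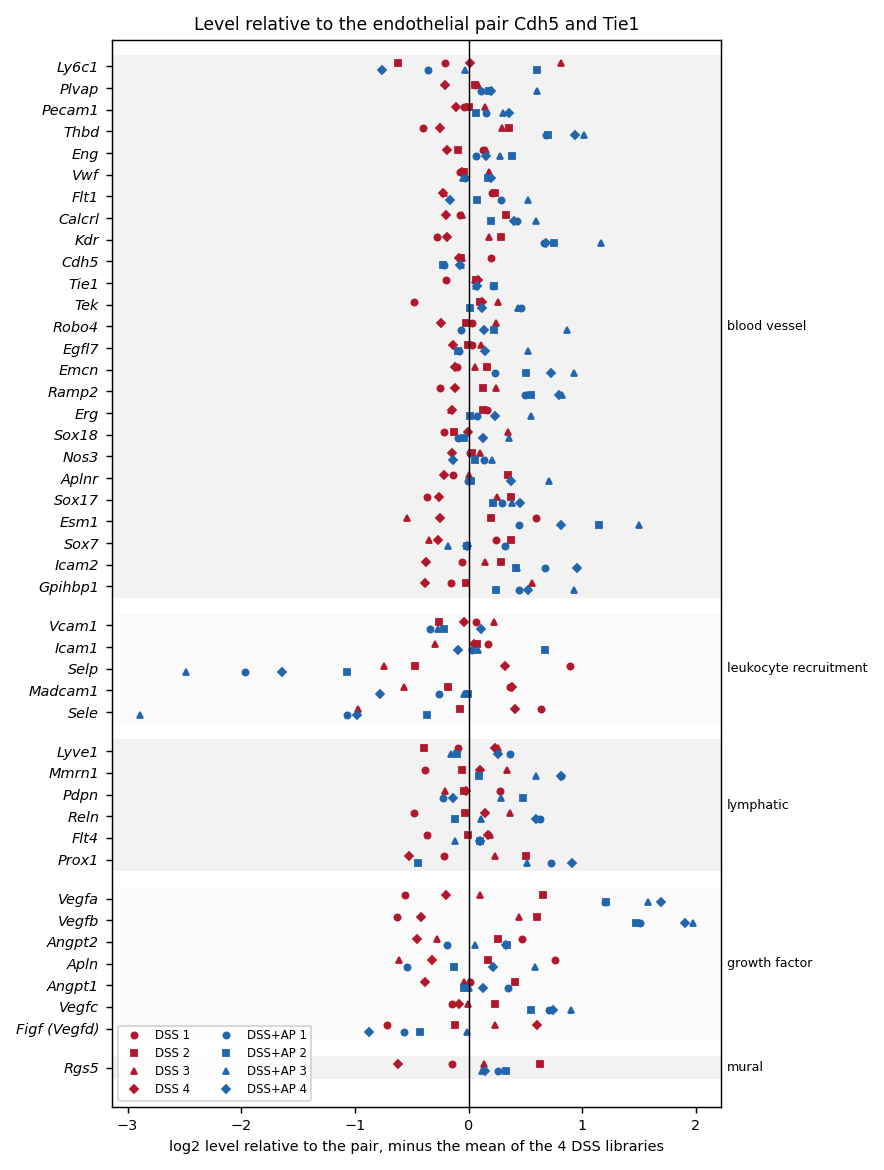
Level of each gene relative to the mean log2 CPM of Cdh5 and Tie1 in the same library, less the mean of the 4 DSS libraries, with DSS in red and DSS+AP in blue and 1 symbol per replicate number. Most genes overlap around 0, Selp lies to the left in all DSS+AP libraries, and Vegfa, Vegfb, Vegfc, Kdr and Thbd lie to the right.

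Genes of the same cells and pathways outside the 44 were mostly lower too, where 20.4% of all genes tested were lower and 8.84% higher. Of 24 other endothelial genes, 17 were lower and 1 higher, with a median of -1.003. Cyyr1 and Shank3, both enriched in endothelium, changed by -1.81 ± 0.22 and -1.46 ± 0.18, the flow-responsive transcription factor gene Klf2 by -1.01 ± 0.14 and the junction molecule gene Esam by -1.40 ± 0.20. The 1 that rose was Sox13, at 0.53 ± 0.13, a factor not restricted to endothelium, named after its value was seen. The other 6 did not pass. Among these Clec14a, also named after its value was seen, was estimated higher, at 0.33 ± 0.16 (edgeR adjusted p = 0.143). Estimates were under 0 for 22 of the 24. Of 25 other genes of angiogenic signalling, 20 were tested, 11 were lower and 1 was higher (Ephb4, at 0.44 ± 0.13, also named after its value was seen), with a median of -0.66. Thbs1 and Thbs2, which encode thrombospondins that restrain vessel growth, changed by -1.75 ± 0.28 and -1.35 ± 0.23, and the VEGF co-receptor gene Nrp1 by -0.69 ± 0.12. Adm, the ligand of the receptor of Calcrl and Ramp2, fell from 10.97 ± 2.71 to 3.59 ± 1.07 CPM, so that the ligand and both chains of its receptor were lower. Of 14 other lymphatic genes, 12 were tested, 8 were lower and 0 higher, with a median of -0.96. Ccbe1, which is needed to process VEGF-C, changed by -0.96 ± 0.15, Tbx1 by -1.85 ± 0.26, Svep1 by -1.87 ± 0.34 and the integrin gene Itga9 by -1.2002 ± 0.22.

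Markers of smooth muscle, fibroblasts and leukocytes were mostly lower, and some of epithelium were higher, beside 20.4% lower and 8.84% higher over all genes. Smooth muscle markers were lower in 10 of 12 (median -0.87), and their summed level ran from 3125 to 4880.1 CPM in DSS and from 1626 to 2976 CPM in DSS+AP. Myocd, the gene of the muscle co-activator myocardin, changed by -0.94 ± 0.16 and the contractile gene Mylk by -0.54 ± 0.11. Fibroblast markers were lower in 9 of 10 (median -1.19), with sums of 2646 to 6004 and 1443 to 2220.0 CPM, and the receptor gene Pdgfra and the matrix gene Dcn changed by -1.203 ± 0.14 and -1.35 ± 0.18. Leukocyte markers were lower in 9 of 10 (median -1.23), with sums of 449.6 to 994 and 302 to 458 CPM, and the integrin gene Itgam of myeloid cells and the general leukocyte gene Ptprc changed by -1.41 ± 0.26 and -0.92 ± 0.20. Epithelial markers were higher in 4 of 10 and lower in 0 (median 0.46), with overlapping sums of 19971 to 33710.0 and 30694 to 45598 CPM. Lgr5, a gene of crypt stem cells, rose by 2.73 ± 0.55, the largest change of this list. Cdx2, Krt20 and Vil1 rose by 0.83 ± 0.26, 0.60 ± 0.14 and 0.40 ± 0.10. Epcam, Cdh1, Krt8, Krt19, Muc2 and Car1 did not pass. No marker of these 4 lists was at 0 in any library. The markers closest to the blood itself were lower too. Of the 5 red blood cell genes 5 were lower (median -2.02; sums of 74.2 to 139 and 13.8 to 38.6 CPM), and Hbb-bs, a beta globin gene that shares reads with near copies, fell from 44.2 ± 12.7 to 10.9 ± 3.71 CPM. Of 6 platelet markers 3 were tested, and Pf4 and Itga2b were lower, at -0.82 ± 0.20 and -1.05 ± 0.27. Gp9 and Gp6, markers of platelets, were at 0 in at least 1 library, and the summed level of the 6 was 12.7 to 21.6 CPM in DSS and 8.87 to 11.2 CPM in DSS+AP. Mesothelial markers, of the outer lining of the gut, were lower in 3 of 4 tested (median -2.85; sums of 9.77 to 20.7 and 4.15 to 5.89 CPM), with Upk3b at 0 in at least 1 library. Adipocyte markers were lower in 1 of 6 (median 0.0040, sums of 34.0 to 248 and 49.4 to 168 CPM). That share, 16.7%, is under the 20.4% of all genes. The part of these other cells in the fall of the endothelial genes was not tested.

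**Figure D4:**
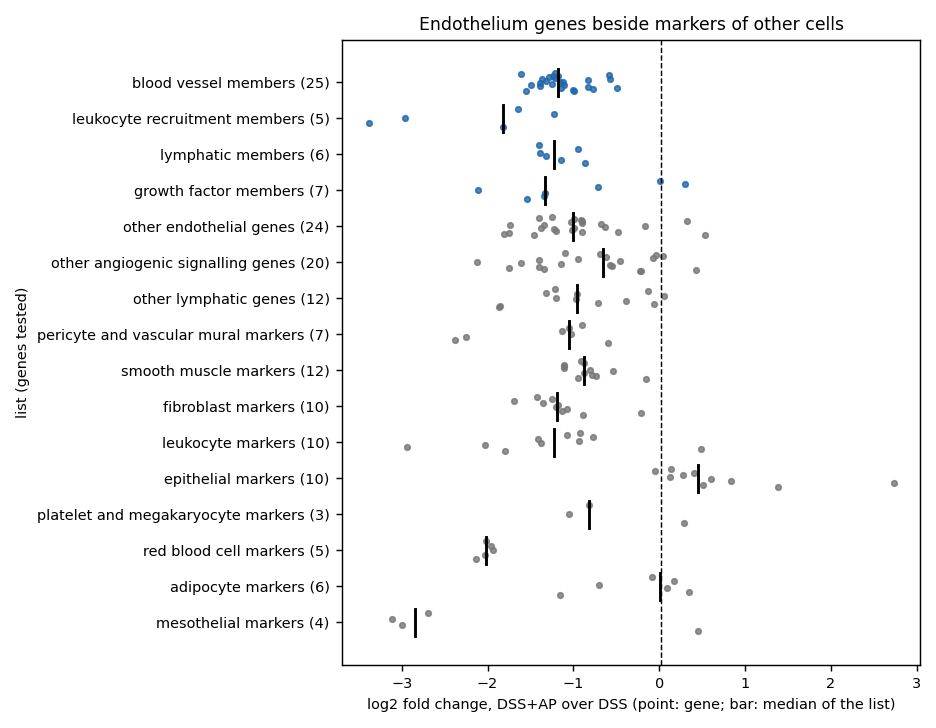
Log2 fold change of each tested gene, DSS+AP over DSS, for 43 of the 44 genes by role (blue, without Rgs5) and for the other lists (grey), with the median of each list as a black bar, the number of genes tested in brackets and the median of all genes as a dashed line. Blood vessel, lymphatic, mural, muscle, fibroblast and leukocyte lists have medians between -0.87 and -1.23, and the epithelial list lies at 0.46.

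Many of the 44 genes were low or high in the same mice of a group. DSS 2 had the lowest value of its group for 35 of the 44 genes, beside 30.5% of all genes tested, and DSS 1 or DSS 4 the highest for 38 (86.4%), beside 57.5% of all genes. In DSS+AP the lowest value was most often in DSS+AP 4, for 23 genes, beside 24.6% of all genes, and the highest in DSS+AP 2, for 19, beside 35.1%. Genes that share a cell type are not independent, so these counts describe the libraries and were not tested. Without DSS 2 the number of the 44 genes that were lower was 41, and over the 8 ways to leave out 1 library it was between 35 and 41.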

How the data were processed

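RNA of 8 mouse colon libraries was measured, 4 in each group as the titles give. Per the labels' protocols, total RNA went into messenger RNA libraries of a SMARTer kit. RSEM 1.2.8, HISAT2 2.1.0 and Bowtie2 2.2.5 appear with the build GRCm38.p6 in the submitters' processing notes, without their roles. The table deposited by the authors holds estimated counts, which were not scaled to depth and of which 10.7% to 11.5% in each library are not whole. They were rounded, filtered with filterByExpr (14578 of 18806 genes kept), scaled with TMM factors and tested with edgeR 4.0.16 in R 4.3.3 (quasi-likelihood F test, robust, no covariates, Benjamini-Hochberg adjustment over all genes tested). SEs come from the estimate and its F statistic, and log2 CPM uses a prior count of 2.

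The 44 members, the lists and the tests were chosen with earlier results of these data known. Every member is named, and up to 4 genes of each vascular list by the rule of smallest p among those past the threshold. Genes named beyond this rule are given as such. The alternatives were other scaling factors and filters, no robust estimation, a replicate block, DESeq2 1.42.0, limma 3.58.1 (voom with quality weights) and leaving out each library. The fits were tested on simulated data. Coordinates and promoters come from RefSeq, and exon lengths and overlaps from GENCODE vM21, both for GRCm38.p6. The sources used here do not say whether counting used strand.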

Additional observations from a re-analysis of the deposited data

Results flagged for a closer look

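In 3 groups of 4 libraries 1 value stood far from the others for its gene, by Dixon's test of the gap over the range. Vegfc in DSS+AP 4 was at 2.79 CPM, below the next library at 3.24 CPM. Angpt2 in DSS 1 was at 11.1 CPM, above the next at 6.21 CPM. Rgs5 in DSS 4 was at 190.0 CPM, below the next at 239 CPM. Chance flags about 1 in 20 such groups, and 88 were examined.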

How the results depend on the processing

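Over the 17 alternatives, 43 of the 44 genes kept their direction in all. Vegfa, near 0, turned in 5: -0.0091 with upper-quartile factors, -0.027 with library totals, -0.035 with limma-voom, -0.056 without DSS 1 and -0.011 without DSS+AP 4, within a range of -0.056 to 0.127 when 1 library was left out. Of the 41 lower genes, 30 passed in every alternative, and 11 lost the call in 37 cases in all. When 1 library was left out, 35 to 41 genes were lower: 21 to 24 blood vessel, 4 to 5 recruitment, 5 to 6 lymphatic and 3 to 5 growth factor genes. Over all genes 1985 to 3086 were then lower and 525 to 2101 higher (525 without DSS 4, 565 without DSS+AP 3, 762 without DSS+AP 4, 847 without DSS 3 and 2101 without DSS 2). The higher genes numbered 767 with library totals, 1950 with no filter, 2107 with DESeq2 and 2410 with limma-voom, beside 1288, and the cause was not tested. With the replicate number as a block, 1967 genes were lower and 582 higher over all, and 31 of the 44 were lower, with 3 recruitment and 3 growth factor genes. The calls lost with this block were those of Apln, Emcn, Gpihbp1, Icam1, Icam2, Kdr, Ly6c1, Madcam1, Pdpn and Vegfc. Their edgeR adjusted p-values ran from 0.0540 for Emcn to 0.108 for Ly6c1. Deviations of same-numbered libraries had correlations of -0.14, -0.45, 0.36 and -0.19, and DSS 1 correlated best with DSS+AP 2. Such correlations cannot show whether same-numbered mice were handled together, and pairing was not tested otherwise. Medians relative to Cdh5 and Tie1 ran from 0.17 to 0.30 for blood vessel, -0.46 to -0.15 for recruitment, 0.17 to 0.30 for lymphatic and -0.018 to 0.29 for growth factor genes without 1 library, a check chosen after seeing the data. Depth limits Sele, Figf, Sox7 and Gpihbp1, with at most 21 counts in any DSS+AP library.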
